A study of Mus musculus with 51 samples.

Results

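Tau, 3 proteins that regulate microtubules and the main kinases of tau were examined in laser-captured layers of the mouse hippocampus. The genes are Mapt, Map2, Map4, Gsk3b, Cdk5, Cdk5r1 and Stmn1. They were selected by symbol in the platform's annotation, and every probe set of each gene was kept and is shown separately. The 7 genes, of 11807 named on the array, have 15 of the 22626 probe sets tested, namely 3 of Mapt, 2 of Map2, 1 of Map4, 1 of Gsk3b, 2 of Cdk5, 4 of Cdk5r1 and 2 of Stmn1. The data are 51 microarrays from 17 mice, labelled female and aged 4.5 months, with 1 array from the CA1 pyramidal layer, 1 from the CA3 pyramidal layer and 1 from the granule layer of the dentate gyrus (DG) of each mouse. The 6 rTg4510 mice carried a mutant human tau transgene under a tetracycline-responsive element together with tTA, the tetracycline-controlled transactivator, which was itself driven by the CaMKIIα promoter of forebrain excitatory neurons. The 5 tTA mice carried only the transactivator, and the 6 double negative (DN) mice were littermates with neither transgene. All came from crosses of an FVB/N tau line with a tTA line of another strain. The comparisons asked whether these genes differed with the tau transgene, and whether they differed between the 3 subfields.

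Microtubules are polymers of tubulin that carry transport along axons and dendrites. Tau, the product of Mapt, binds and stabilizes them in axons, and the products of Map2 and Map4 bind them through related repeats, Map2 mainly in dendrites. Gsk3b and Cdk5 encode kinases that phosphorylate tau, and Cdk5r1 encodes the subunit that activates Cdk5. Stmn1 encodes stathmin, which sequesters tubulin dimers and promotes the shrinkage of microtubules.

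All values are log2 RMA signals, in which a difference of 1 is a doubling, and signals of different probe sets are not comparable in level. Differences were tested with limma, a linear model that shares information on the spread between probe sets. P-values were adjusted by Benjamini and Hochberg's method across the 22626 probe sets, and called under 0.05. Array medians were 2.91 to 3.12. Most member probe sets lay above the array's median throughout. The exceptions were Cdk5 1422590_at, below the array's median in 41 of 51 arrays, Cdk5r1 1421124_at, below it in 30, and Cdk5r1 1421123_at, below it in 14, so that these values lie close to background. Mapt 1424719_a_at was below it in 4 arrays and Cdk5 1450674_at in 1. Prnp, whose sequence forms part of the tau transgene, went against the genotype label in 5 arrays. The dimmer of its probe sets read 9.59 to 10.6 in 17 rTg4510 arrays, 7.17 to 8.46 in 15 tTA arrays and 6.57 to 8.76 in 14 DN arrays. Those that differed were all 3 arrays of the animal labelled DN mouse8577 and the DG array of DN mouse8578, at 9.65 to 10.4, and the DG array of rTg4510 mouse8587, at 7.34. These arrays were kept under their labels, and counts or calls given here that changed without them are followed by the value without them. The defining markers of the DG (Prox1, Dsp, Calb1 and C1ql3) were lower in CA1 and in CA3 than in the DG at all 4 genes. Their mean signal per array reached 5.48 in CA1 arrays (median 3.09) and 4.16 in CA3 arrays (median 2.21), and began at 6.58 in DG arrays. The other layers separated less cleanly. Of 6 CA1 markers, 3 were higher in CA1 than in CA3, and only 1 (Crym) was higher in CA1 than in the DG. All 3 CA3 markers were lower in CA1 than in CA3, and 2 were higher in CA3 than in the DG. The mean signal of the CA3 markers per array reached 6.88 in CA1 arrays and began at 6.86 in CA3 arrays. Whether CA1 or CA3 arrays held tissue of other layers was not tested. In tissue layers, fewer cells of a type and less RNA per cell cannot be told apart.

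Stmn1 showed the clearest pattern of the 7 genes, with less signal in both pyramidal layers than in the granule layer. At probe set 1415849_s_at the signal ranged from 8.68 to 9.52 in CA1 (median 9.12), from 8.80 to 9.45 in CA3 (median 9.14) and from 9.37 to 9.82 in the DG (median 9.65). Each of the 17 mice had less signal in its CA1 array than in its DG array, and each had less in CA3 than in the DG, although the ranges of the subfields overlapped across mice. The means were 9.06 ± 0.26 in CA1, 9.12 ± 0.17 in CA3 and 9.60 ± 0.13 in DG arrays (SD, n = 17 each). The difference was -0.53 (standard error 0.06, adjusted p = 7.11e-08, limma) for CA1 against the DG, or 1.45-fold lower in CA1. For CA3 against the DG it was -0.48 (standard error 0.06, adjusted p = 4.07e-07, limma), or 1.39-fold lower in CA3. CA1 and CA3 differed by -0.06, with a 95% interval of -0.18 to 0.07 (adjusted p = 0.729).

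The other probe set of Stmn1, 1448113_at, followed the same order. Its means were 7.22 ± 0.53 in CA1, 7.38 ± 0.23 in CA3 and 7.91 ± 0.27 in DG arrays (SD, n = 17 each). The signal was lower in CA1 than in the DG in 15 of 17 mice (difference -0.69, standard error 0.12, adjusted p = 5.5e-05) and lower in CA3 than in the DG in 16 of 17 mice (difference -0.54, standard error 0.12, adjusted p = 0.00121). Both Stmn1 sets kept their calls in all 10 alternative settings that used all genotypes, and without each mouse in turn. In fits of the 5 or 6 mice of 1 genotype the difference of 1415849_s_at between CA3 and the DG was -0.43 in rTg4510, -0.40 in tTA and -0.58 in DN mice, and it passed the test in DN mice alone. At 1448113_at no genotype by itself passed for CA3 against the DG, and for CA1 against the DG the difference was -0.30 in rTg4510 (adjusted p = 0.554), -0.81 in tTA (adjusted p = 0.0654) and -0.98 in DN mice (adjusted p = 0.0265). Probes of a set with the suffix _s_at can be shared with transcripts of other genes, which was not tested here. The 2 Stmn1 sets correlated at r = 0.805 over the 51 arrays, across arrays that share mice and subfields. After removal of group means r was 0.616.

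**Figure D1:**
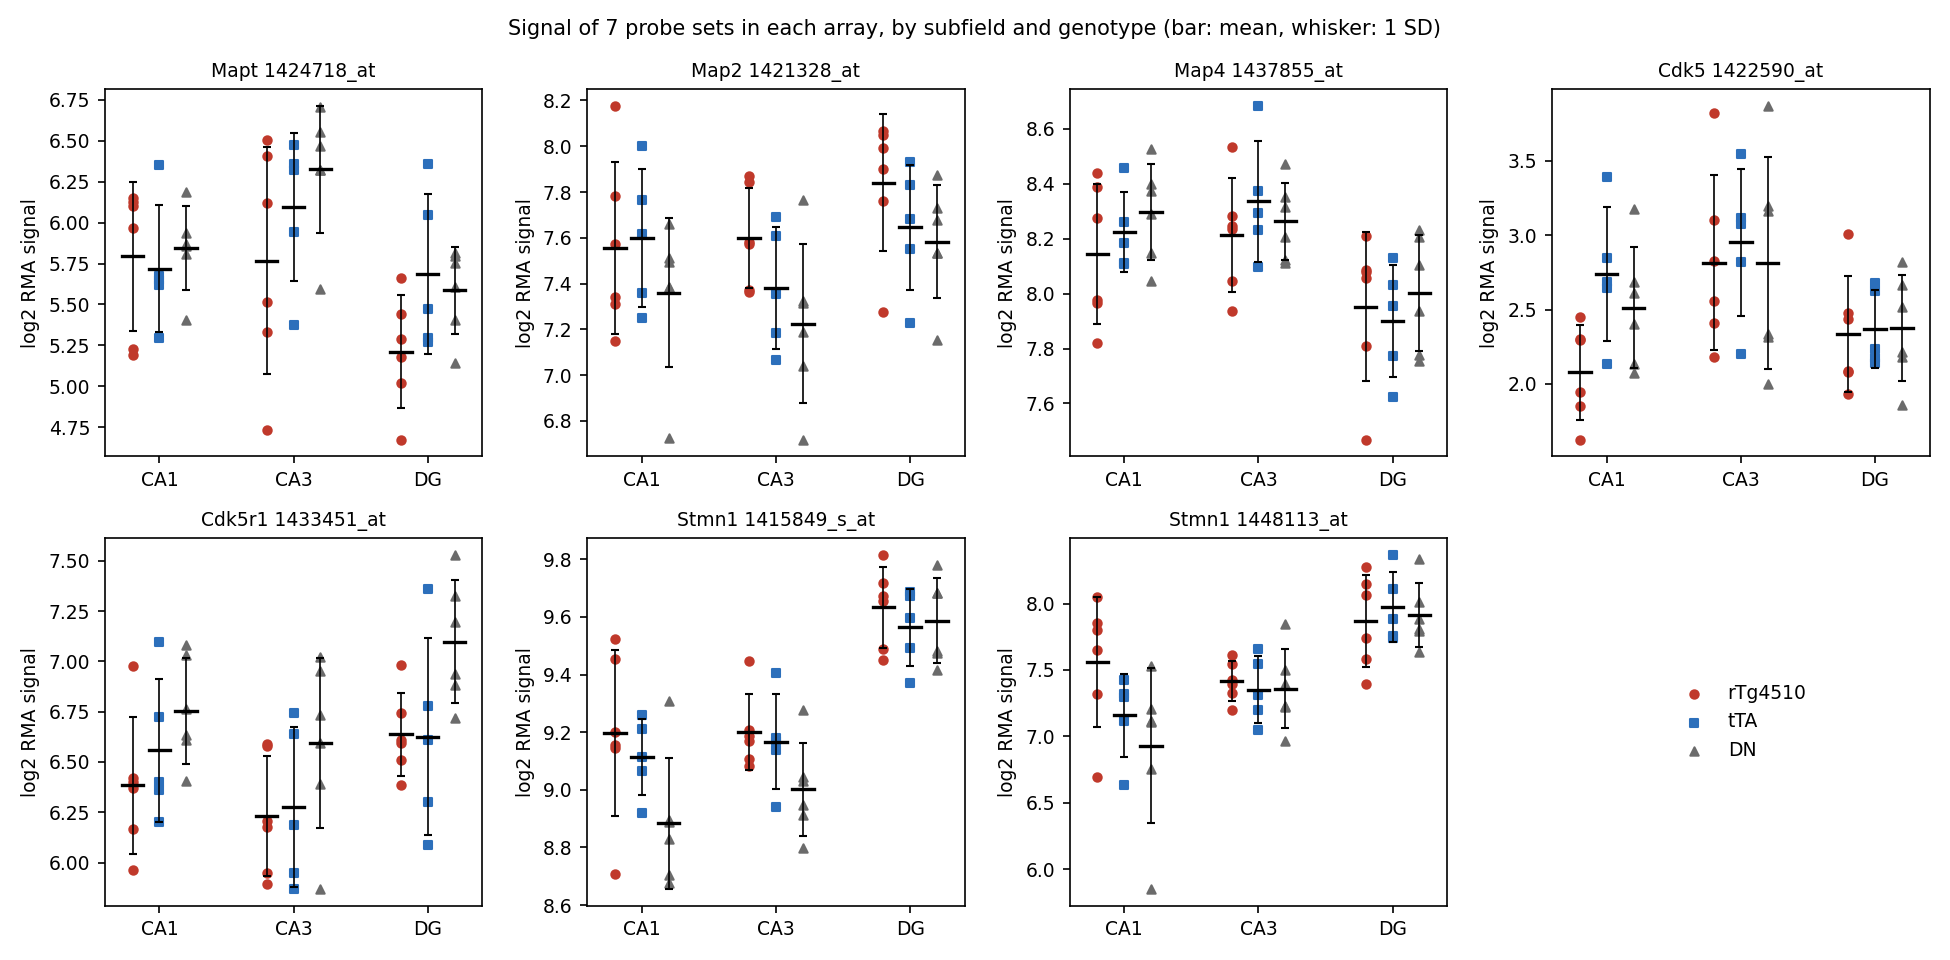
Log2 RMA signal (y axis) of the 7 member probe sets called for CA3 against the DG in each of the 51 arrays, by subfield (x axis), with rTg4510 mice as circles, tTA mice as squares and DN mice as triangles, the mean as a bar and 1 SD as whiskers. Both Stmn1 probe sets sat highest in the DG, Map4 sat lowest in the DG, and the other 4 overlapped widely between subfields.

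Other measures moved with the subfield beside Stmn1. Immature neurons, which the adult granule layer continues to generate, were represented by 6 measured marker genes, of which 4 were lower in CA1 and in CA3 than in the DG. Calb2 differed by -2.22 for CA1 and -1.69 for CA3 against the DG, Neurod1 by -1.43 and -0.79, and Sox4 by -0.78 and -1.98, while Sox11 differed by -1.59 for CA3. Tubb3, the fifth, was higher in CA3 (by 0.55) and in CA1 (by 0.44), where the call was lost without the 5 arrays (adjusted p = 0.0772), and Igfbpl1 did not pass the test. The mean signal of these 6 genes per array ran from 4.24 to 4.91 in CA1, from 4.36 to 5.19 in CA3 and from 5.02 to 6.24 in DG arrays, and RMA signals have no true zero. Astrocyte markers were also lower in CA1 than in the DG at 5 of 7 genes and in CA3 than in the DG at 3 of 7, with mean signals per array of 5.65 to 7.81 in CA1, 5.56 to 7.36 in CA3 and 5.53 to 7.88 in DG arrays. The CA3 count was 4 of 7 without the 5 arrays. Interneuron markers were lower in CA3 than in the DG at 3 of 6 genes, namely Gad1 (-1.53), Gad2 (-1.37) and Npy (-1.58), and none was higher, although Pvalb was called higher without the 5 arrays. In CA1 Gad1 (-0.65) and Npy (-1.02) were lower than in the DG and Pvalb (1.78) was higher, and Gad1 was not called without the 5 arrays (adjusted p = 0.0501). The mean signal of the 6 interneuron genes per array was 5.93 to 8.10 in CA1, 5.80 to 6.93 in CA3 and 6.26 to 7.46 in DG arrays. Of 8 microglia markers, 2 were lower in CA3 than in the DG, and none without the 5 arrays. Of 9 oligodendrocyte markers, Mal was higher in CA3 than in the DG (0.97), but not without the 5 arrays (adjusted p = 0.0958). Mbp was called higher in CA1 than in the DG only without them (1.08, adjusted p = 0.0492). None of 5 vessel markers was called against the DG. Over all probe sets 5.33% were lower in CA1 and 6.59% lower in CA3 than in the DG. The part of these cell types in the Stmn1 difference was not tested. The 3′ signal of Gapdh exceeded its 5′ signal by a median of 2.32 in CA1, 2.40 in CA3 and 2.67 in DG arrays. With this measure of RNA quality as a covariate, the Stmn1 1415849_s_at difference was -0.50 for CA1 and -0.45 for CA3 against the DG, and both calls remained.

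Across all 15 member probe sets, 3 were higher and 4 lower in CA3 than in the DG, where 7.27% of all probe sets tested were higher and 6.59% lower. Without the 5 arrays Cdk5 1422590_at, among the higher ones, and Map2 1421328_at, among the lower ones, lost their calls. Cdk5r1 1421123_at was then called lower. With arrays centred on their medians 4 members were higher and 3 lower, and the share of higher ones among all called probe sets was 69.1% in place of 52.5%. For CA1 against the DG, 1 was higher and 2 were lower, against 5.60% and 5.33% of all probe sets. For CA1 against CA3 none passed the limma test (1 at an unadjusted p under 0.05), where 2.46% of all probe sets were higher and 2.22% lower in CA1. The median of the absolute difference was 0.42 over the members and 0.16 over all probe sets for CA3 against the DG, and 0.13 over both for CA1 against CA3. All probe sets were taken without a filter and include many close to background, whereas most members lay above the array's median. The members were not compared with probe sets of like signal. The comparisons of CA1 and of CA3 with the DG share the DG arrays.

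Map4, whose product binds microtubules in most tissues, ran opposite to Stmn1. Its probe set 1437855_at read 7.82 to 8.53 in CA1 (median 8.26), 7.94 to 8.68 in CA3 (median 8.25) and 7.47 to 8.23 in the DG (median 8.03). The signal was higher in CA3 than in the DG in 15 of 17 mice, with means of 8.27 ± 0.19 in CA3 and 7.96 ± 0.22 in DG arrays (SD, n = 17 each). The difference was 0.31 (standard error 0.08, adjusted p = 0.00489), or 1.24-fold. CA1, at 8.22 ± 0.20 (SD, n = 17), was higher than the DG by 0.27 (standard error 0.08, adjusted p = 0.0208) and in 12 of 17 mice. The CA1 call was lost without DN mouse8563 (adjusted p = 0.0551), rTg4510 mouse8569 (0.0554) or tTA mouse8584 (0.0553), and with the Gapdh covariate (0.0733), while the CA3 call held in each of these fits. CA1 and CA3 differed by -0.04 (95% interval -0.20 to 0.11).

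The 3 Mapt probe sets were all nominally higher in the pyramidal layers than in the DG, and 1 passed the test. Mapt 1424718_at read 5.19 to 6.35 in CA1 (median 5.86), 4.73 to 6.70 in CA3 (median 6.32) and 4.67 to 6.36 in the DG (median 5.45). It was higher in CA3 than in the DG in 13 of 17 mice, by 0.58 (standard error 0.14, adjusted p = 0.00438), with means of 6.06 ± 0.55 in CA3 and 5.48 ± 0.40 in DG arrays (SD, n = 17 each). The same set differed by 0.31 for CA1 against the DG (95% interval 0.01 to 0.60, adjusted p = 0.202), so that CA1 lay between CA3 and the DG without passing a test against either.

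Mapt 1417885_at differed by 0.47 (standard error 0.26, adjusted p = 0.261) and Mapt 1424719_a_at by 0.70 (standard error 0.28, adjusted p = 0.098) for CA3 against the DG. For CA1 against the DG these differences were 0.57 (adjusted p = 0.198) and 0.67 (adjusted p = 0.143). The 1424719_a_at set passed with array weights (0.77, adjusted p = 0.0399), with arrays centred on their median (0.78, adjusted p = 0.0495) and without rTg4510 mouse8596 (0.90, adjusted p = 0.0172). The SD between mice in the DG was 0.97 for this set, 0.86 for 1417885_at and 0.40 for 1424718_at, and in CA1 it was 0.60, 1.02 and 0.35 in the same order.

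Map2 was not clearly different between subfields. At 1421328_at the means were 7.50 ± 0.33 in CA1, 7.40 ± 0.31 in CA3 and 7.69 ± 0.28 in DG arrays (SD, n = 17 each). CA3 was lower than the DG by 0.29 on the log2 scale (standard error 0.10, adjusted p = 0.036) and in 13 of 17 mice, but the call was lost without the 5 arrays (adjusted p = 0.0637), without each of 8 mice in turn and in 7 other settings. The brighter set 1421327_at differed by -0.21 between CA3 and the DG (adjusted p = 0.269) and ranged from 7.49 to 9.38 over all arrays.

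**Figure D2:**
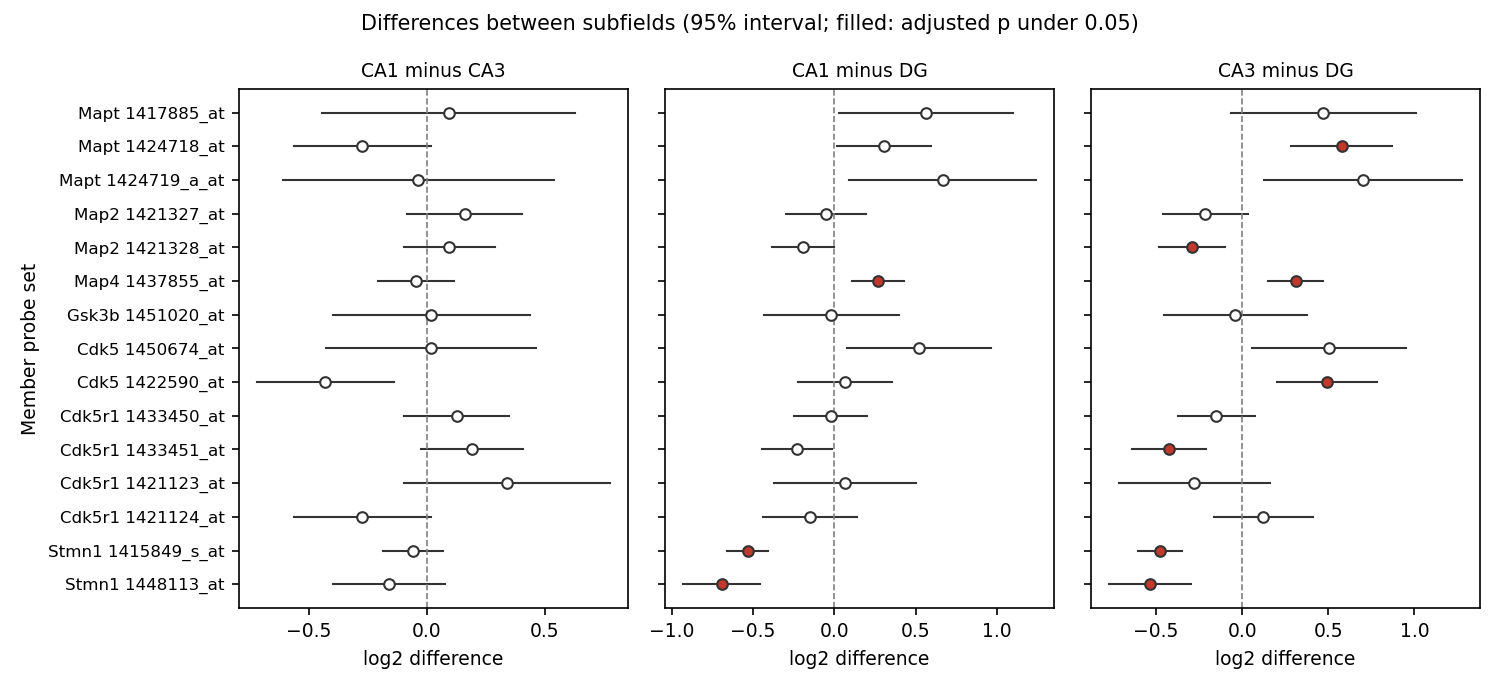
Difference in log2 signal between subfields (x axis) for each of the 15 member probe sets (y axis), for CA1 minus CA3, CA1 minus DG and CA3 minus DG, with the 95% interval as a line and a filled point where the adjusted p is under 0.05. No point is filled for CA1 minus CA3, 3 are for CA1 minus DG and 7 for CA3 minus DG, with Stmn1 at -0.53 and -0.69 in the middle panel.

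Among the kinases, Gsk3b was the most even across subfields. Its single probe set 1451020_at read 6.50 ± 0.58 in CA1, 6.48 ± 0.56 in CA3 and 6.51 ± 0.60 in DG arrays (SD, n = 17 each). The 95% interval of the difference between CA3 and the DG was -0.45 to 0.38, and that between CA1 and the DG was -0.43 to 0.40, so that differences within these intervals were not excluded.

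The 2 probe sets of Cdk5 did not correlate over the 51 arrays (r = -0.0134). Their differences between CA3 and the DG were alike in size, although only the dim set passed the test. For CA1 against the DG they were not alike, at 0.52 for the brighter set and 0.07 for the dim set. The brighter set, 1450674_at, read 5.99 ± 0.59 in CA1, 5.98 ± 0.67 in CA3 and 5.47 ± 0.83 in DG arrays (SD, n = 17 each), a difference of 0.52 for CA1 against the DG (adjusted p = 0.14) and 0.50 for CA3 against the DG (adjusted p = 0.132). This set ran against the Gapdh difference over the arrays (r = -0.51), and with that covariate the differences were 0.13 and 0.20. The dim set, 1422590_at, read 2.43 ± 0.46 in CA1, 2.86 ± 0.58 in CA3 and 2.36 ± 0.32 in DG arrays. It was higher in CA3 than in the DG by 0.50 (standard error 0.14, adjusted p = 0.0155) and in 13 of 17 mice, and the call was lost without the 5 arrays (0.43, adjusted p = 0.0628). All 17 DG arrays and 9 of 17 CA3 arrays of this set lay below their array's median.

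Cdk5r1, the activating subunit, was lower in CA3 than in the DG at 1 of its 4 probe sets. At 1433451_at the signal was 5.96 to 7.10 in CA1 (median 6.42), 5.87 to 7.02 in CA3 (median 6.39) and 6.09 to 7.53 in the DG (median 6.74). It was lower in CA3 than in the DG in 15 of 17 mice, by 0.42 on the log2 scale (standard error 0.11, adjusted p = 0.00486), and this call held in all settings with all genotypes and without each mouse. The difference was -0.40 in rTg4510, -0.35 in tTA and -0.50 in DN mice. The brightest set of the gene, 1433450_at, differed by only -0.15 between CA3 and the DG (95% interval -0.37 to 0.07, adjusted p = 0.412), with means of 7.76 ± 0.39 in CA3 and 7.91 ± 0.36 in DG arrays (SD, n = 17 each). The dim sets 1421123_at and 1421124_at differed by -0.28 (adjusted p = 0.443) and 0.12 (adjusted p = 0.63). Without the 5 arrays 1421123_at passed, at -0.56 (adjusted p = 0.04999), and 1 of those arrays, the CA3 array labelled DN mouse8577, read 6.05 where the other DN arrays of CA3 read 2.56 to 3.29.

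No member probe set passed the limma test between genotypes in any subfield. The count was 0 of 15 for rTg4510 against tTA, tTA against DN and rTg4510 against DN mice, whether subfields were tested singly or averaged per mouse. It was also 0 of 15 in each alternative setting run for these comparisons, including without the 5 arrays and with Fisher's LSD, the methods' test. Few genes of any kind passed in these data. The share of all probe sets called by limma was 0.00442% (1 probe set) for rTg4510 against tTA mice in CA3 and for rTg4510 against DN mice in CA1, and 0% in the other comparisons. The 3 genotype comparisons share their mice.

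At an unadjusted p under 0.05, 2 of 15 members differed between rTg4510 and tTA mice in CA1, where 3.97% of all probe sets did. The counts for the same genotypes were 0 in CA3 (5.91% of all), 2 in the DG (5.71%) and 0 in the mean of subfields (5.35%). For tTA against DN mice they were 0 in CA1 (4.59%), 0 in CA3 (6.13%), 1 in the DG (5.21%) and 2 in the mean (6.17%). For rTg4510 against DN mice they were 3 in CA1 (5.39%), 1 in CA3 (3.94%), 2 in the DG (4.73%) and 5 in the mean (5.41%). The last count covered Cdk5r1 1433451_at (-0.40, unadjusted p = 0.00708, adjusted p = 0.762) and 1421124_at (-0.55), Mapt 1424718_at (-0.33), Map2 1421328_at (0.28) and Stmn1 1415849_s_at (0.19), none of which passed after adjustment.

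**Figure D3:**
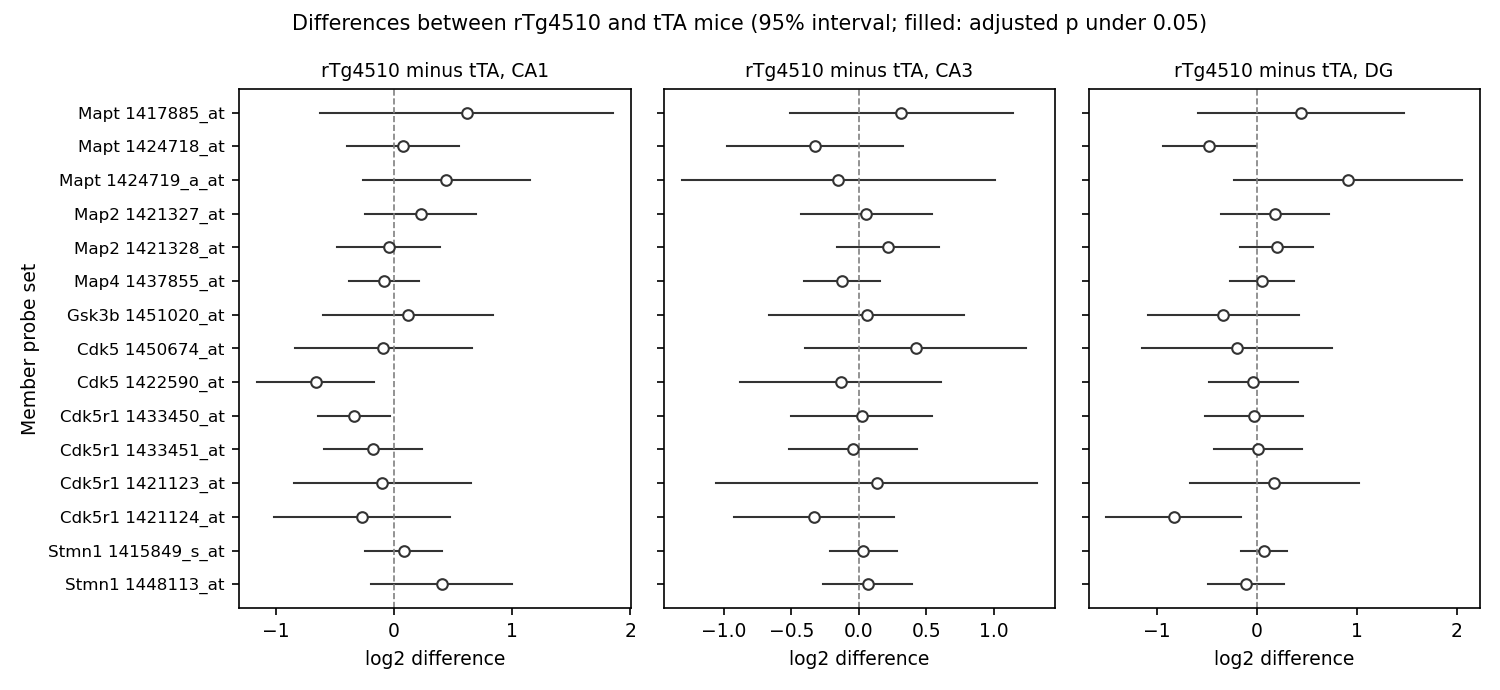
Difference in log2 signal between rTg4510 and tTA mice (x axis) for each of the 15 member probe sets (y axis) in CA1, CA3 and DG, with the 95% interval as a line. No point is filled, since no adjusted p was under 0.05, and the intervals of Mapt 1417885_at and 1424719_a_at are among the widest.

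Mapt was of particular interest, because its human form is the transgene. Where the probes of the mouse sets lie relative to the human sequence is not given in the sources used here, so that these sets are no check of the transgene. Mapt 1417885_at averaged 5.89 ± 0.67 in rTg4510 mice (SD, n = 6) and 5.43 ± 0.39 in tTA mice (SD, n = 5) over the mean of the 3 subfields, a difference of 0.46 (95% interval -0.18 to 1.10, adjusted p = 0.914). Mapt 1424719_a_at averaged 4.83 ± 0.53 in rTg4510 and 4.43 ± 0.56 in tTA mice, a difference of 0.40 (95% interval -0.17 to 0.97, adjusted p = 0.914). Mapt 1424718_at had the opposite sign, at 5.59 ± 0.34 in rTg4510 and 5.83 ± 0.26 in tTA mice, a difference of -0.24 (95% interval -0.56 to 0.08, adjusted p = 0.914).

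The 3 sets correlated weakly with each other over the 51 arrays, at r = 0.305, 0.37 and 0.414. In the DG, Mapt 1424718_at read 4.67 to 5.66 in rTg4510 mice (median 5.24), against 5.27, 5.30, 5.47, 6.04 and 6.36 in the 5 tTA mice. The tTA range began inside the rTg4510 range, and the difference of -0.48 had an unadjusted p of 0.0458 (adjusted p = 0.864). At 1424719_a_at the same DG arrays gave the other sign, with 3.36 to 5.47 in rTg4510 mice (median 4.73), against 2.34, 2.64, 4.22, 4.54 and 4.81 in tTA mice (difference 0.91, adjusted p = 0.892).

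**Figure D4:**
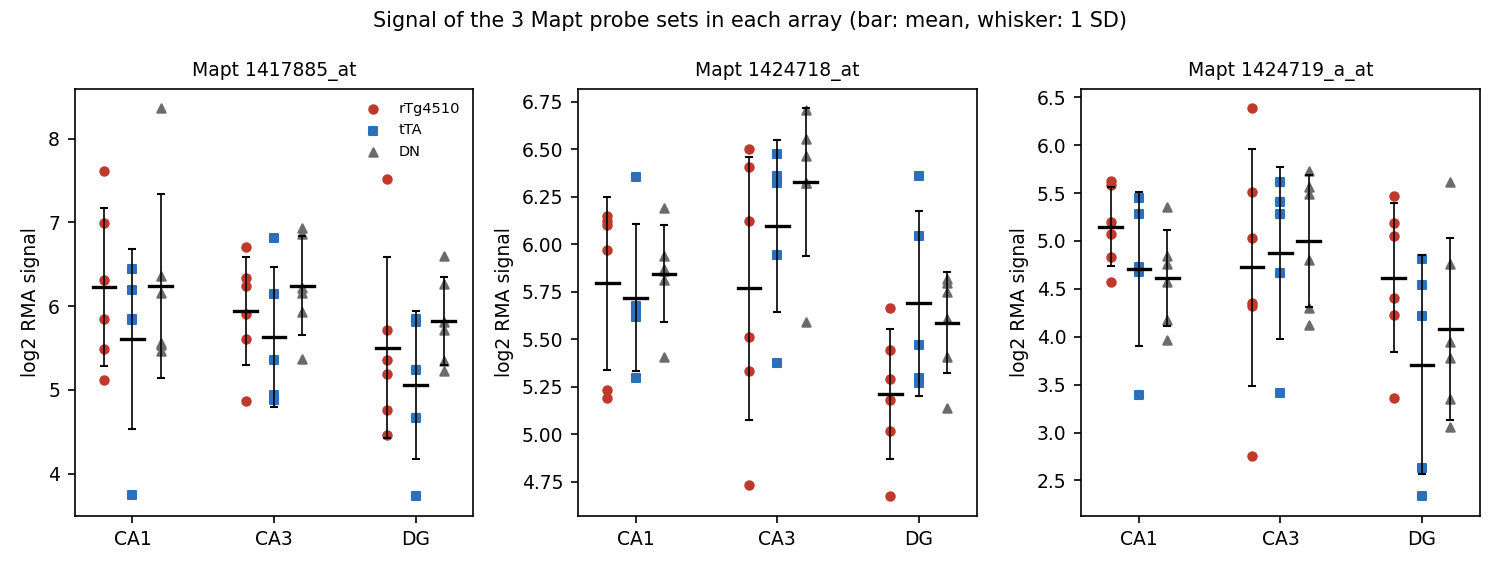
Log2 RMA signal (y axis) of the 3 Mapt probe sets in each array by subfield (x axis), for rTg4510 (circles), tTA (squares) and DN mice (triangles), with the mean as a bar and 1 SD as whiskers. The genotypes overlap in every subfield, and single arrays stand apart at 1417885_at, such as a tTA array of CA1 at 3.74 and a DN array of CA1 at 8.36.

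In CA1, Cdk5r1 1433450_at read 7.37 to 7.88 in rTg4510 mice (median 7.67), against 7.70, 7.82, 8.01, 8.09 and 8.21 in tTA mice and 7.79 to 8.33 in DN mice. Of the 6 rTg4510 arrays, 3 lay below every tTA array and the other 3 lay inside the tTA range. The difference was -0.33 from tTA mice (unadjusted p = 0.0331, adjusted p = 0.999) and -0.45 from DN mice (unadjusted p = 0.00426, adjusted p = 0.783). The same set differed by 0.02 between rTg4510 and tTA mice in CA3 and by -0.03 in the DG. Cdk5 1422590_at, close to background, differed by -0.66 in CA1 (unadjusted p = 0.0118, adjusted p = 0.999). The brighter Cdk5 set differed by -0.09 there (95% interval -0.84 to 0.66).

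Stmn1 1448113_at read 7.56 ± 0.49 in CA1 of rTg4510 mice (SD, n = 6), 7.16 ± 0.31 in tTA mice (SD, n = 5) and 6.93 ± 0.58 in DN mice (SD, n = 6). The rTg4510 mean exceeded that of tTA mice by 0.40 (standard error 0.28, adjusted p = 0.999). At 1415849_s_at the difference in CA1 was 0.08 (95% interval -0.24 to 0.41), with 0.03 in CA3 and 0.07 in DG arrays. At 1448113_at it was 0.07 in CA3 and -0.11 in DG arrays. Gsk3b differed by 0.12 in CA1, 0.06 in CA3 and -0.34 in DG arrays between rTg4510 and tTA mice, with intervals that reached from -1.09 to 0.84. Map4 differed by -0.08 in CA1, -0.12 in CA3 and 0.05 in DG arrays, with intervals within -0.41 and 0.37.

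Whether the effect of the tau transgene itself differed between subfields was tested on each mouse's differences between its arrays. No member passed at an adjusted or an unadjusted p under 0.05 for CA1 against CA3 (4.15% of all probe sets at an unadjusted p under 0.05), for CA1 against the DG (4.82%) or for CA3 against the DG (6.42%). The lower Stmn1 signal in CA3 than in the DG changed by -0.04 at 1415849_s_at (95% interval -0.39 to 0.32) and by 0.17 at 1448113_at (95% interval -0.36 to 0.70) between rTg4510 and tTA mice. For CA1 against the DG, 1415849_s_at differed by -0.44 in rTg4510 and -0.45 in tTA mice. At 1448113_at these differences were further apart, at -0.30 and -0.81, and this change did not pass either.

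The genes most like each member over the 51 arrays, taking its brightest probe set, were listed as a description. Stmn1 ran with Kcnc4 (r = 0.815), a potassium channel subunit, Nrep (r = 0.795) and Apcdd1 (r = 0.793), all with higher means in the DG. Their means in CA1, CA3 and the DG were 4.54, 3.83 and 7.98 for Kcnc4, 7.41, 7.37 and 9.10 for Nrep, and 3.20, 3.03 and 5.35 for Apcdd1. Map4 ran with Sema3e (r = 0.688), Rasgrp1 (r = 0.644) and Epb41l3 (r = 0.642), all with lower means in the DG. Cdk5 1450674_at ran with Hpf1 (r = 0.727), Fam241b (r = 0.707) and the tubulin gene Tubb2a (r = 0.663). For Mapt 1417885_at the highest r was 0.624 (Mtpn), for Map2 1421327_at 0.643 (Pura), for Gsk3b 0.568 (Sar1a) and for Cdk5r1 1433450_at 0.648 (Tia1).

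Stmn1 was set beside 8 other measured genes that destabilize or sever microtubules, each taken at its brightest probe set. In this and the other lists of genes and markers, the shares over all probe sets include dim sets, so that the basis is not alike. None of the 8 was lower in CA1 or in CA3 than in the DG. Over all probe sets 5.60% were higher in CA1 and 7.27% higher in CA3 than in the DG, and 2 of the 8 genes were higher in each. Both of these are stathmin relatives found mainly in neurons. Stmn2 averaged 7.55 ± 0.52 in CA1, 8.37 ± 0.24 in CA3 and 6.26 ± 0.67 in DG arrays (SD, n = 17 each), which is 2.10 higher in CA3 than in the DG (standard error 0.18, adjusted p = 5e-11) and 1.29 higher in CA1 (adjusted p = 2.03e-06). Stmn3 averaged 9.63 ± 0.32 in CA1, 9.57 ± 0.33 in CA3 and 9.02 ± 0.31 in DG arrays, 0.55 higher in CA3 (adjusted p = 0.000183) and 0.62 higher in CA1 (adjusted p = 4.76e-05). The sign of these differences was opposite to that of Stmn1. Without the 5 arrays, and with quantile normalization, 1 of the 8 genes was also called lower in CA3 than in the DG.

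Genes of the microtubule itself differed most often between CA3 and the DG. Of 19 measured tubulins and tubulin cofactors, 11 were higher and 1 was lower in CA3 than in the DG, with a median difference of 0.41 over the list and 0.05 over all probe sets, of which 13.9% were called in either direction. The list takes the brightest probe set of each gene, and it was not compared with probe sets of like signal. Ttl, which adds tyrosine back to tubulin, differed by 1.82 (standard error 0.34, adjusted p = 0.000169) and Tubb4b by 0.77 (adjusted p = 0.000788). Over all probe sets 5.60% were higher in CA1 than in the DG, and 2.22% were lower in CA1 than in CA3. Of the 19 genes, 4 were higher and none lower in CA1 than in the DG. For CA1 against CA3 4 were lower, among them Tubb5 (-0.45) and Tuba1a (-0.19). Without the 5 arrays 3 were higher in CA1 than in the DG, and 2 were lower in CA1 than in CA3, where Tuba1a (adjusted p = 0.0551) was no longer called. Of 28 kinesin and dynein genes, the motors that run on microtubules, 9 were higher and none lower in CA3 than in the DG (median 0.27), and 8 were higher and none lower in CA1 than in the DG (median 0.19). Kif3a and Kif5a, both kinesin heavy chains, differed by 0.75 and 0.68 for CA3 and by 0.56 and 0.59 for CA1 against the DG. The motor genes called higher numbered 8 in CA3 and 7 in CA1 without the 5 arrays. Of 6 general neuron markers, Eno2 (0.25), Snap25 (0.24) and Syt1 (0.53) were also higher in CA3 than in the DG and Nefm (-0.86) was lower, and in CA1 Eno2 (0.21) and Syt1 (0.49) were higher and Nefm (-0.61) was lower. Their mean signal per array was 9.07 to 9.93 in CA1, 9.18 to 10.1 in CA3 and 9.12 to 10.1 in DG arrays, and their part in the tubulin and motor differences was not tested.

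Other kinases known to phosphorylate tau were split. Over all probe sets 7.27% were higher and 6.59% lower in CA3 than in the DG (median 0.05). For CA1 against the DG the shares were 5.60% and 5.33% (median 0.02). Of 25 kinases measured, 2 were higher and 6 lower in CA3 than in the DG (median -0.12). In CA1, 2 were higher and 5 lower than in the DG (median -0.10). The CA1 counts were 3 higher and 3 lower without the 5 arrays, and 2 higher and 3 lower with arrays centred. Prkacb, a catalytic subunit of protein kinase A, differed by -1.52 (standard error 0.18, adjusted p = 8.41e-08) for CA3 against the DG, and the calmodulin-dependent kinases Camk2d and Camk2g by -1.32 and -1.21. Mapk10 and Mapk8, stress-activated kinases, were higher in CA3, by 0.95 and 0.97. Mark2, which phosphorylates the microtubule-binding repeats of tau, differed by -0.49 (adjusted p = 0.00631).

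For the remaining lists, the shares over all probe sets are again 7.27% higher and 6.59% lower in CA3 than in the DG. Of 16 phosphatase genes that can act on tau, 5 were higher and none lower in CA3 than in the DG (median 0.20). Among them were the calcineurin subunits Ppp3r1 (0.88) and Ppp3cb (0.30). Of these, 4 remained higher without the 5 arrays, and Ppp3cb was no longer called (adjusted p = 0.114). Of 22 other microtubule-binding proteins, 2 were higher and 5 lower in CA3 than in the DG (median -0.05, but 0.02 with arrays centred), the lower ones led by Nav2 (-1.50), Dpysl4 (-1.04), Dclk1 (-0.77) and Dst (-0.71). Without the 5 arrays, or with quantile normalization, none was called higher. Of 17 genes for tau modifiers and turnover, none was higher and 4 were lower, with Fkbp5, a co-chaperone of Hsp90, at -1.27. With arrays centred, 1 of the 17 was higher and 3 were lower (median 0.09). With quantile normalization none was higher and 3 were lower (median -0.01). Between rTg4510 and tTA mice no gene of these 7 lists passed the test in any subfield. Up to 4 genes of a list had an unadjusted p under 0.05, and the lists hold 8 to 28 genes. Of all probe sets, 3.97% (CA1), 5.91% (CA3) and 5.71% (DG) had such a p. Whether a list exceeded these shares was not tested.

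**Figure D5:**
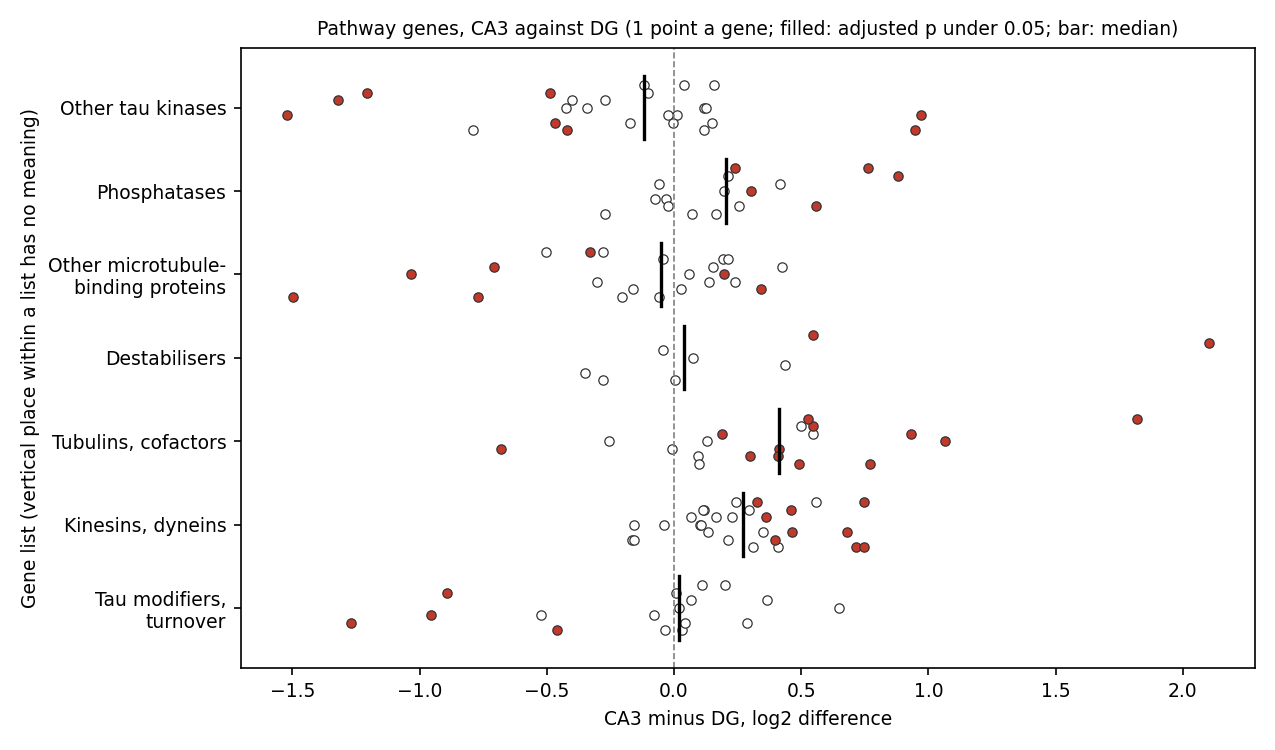
Difference in log2 signal between CA3 and the DG (x axis) for each measured gene of 7 lists of tau and microtubule genes (y axis), 1 point a gene at its brightest probe set, filled where the adjusted p is under 0.05, with the median of each list as a bar. Filled points lie to the right for 11 of 19 tubulin genes and 9 of 28 kinesin and dynein genes, and to the left for 6 of 25 kinases.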

How the data were processed

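Hippocampal sections were laser-microdissected, and RNA was amplified (Ovation Pico WTA) and labelled (Encore Biotin) for Affymetrix HT-MG-430A arrays. The authors deposited RMA signals, which are corrected for background, normalized between arrays and summarized per probe set. The deposited signals are on a log2 scale, although the methods speak of anti-log values. The RMA version and the arrays normalized together are not given in the sources used here. The 90 control sets among 22716 were left out, and no filter was used. The platform annotation gives 1 symbol for 18003 of the 22626 sets left, several for 287 and none for 4336. Prnp was named through the supplementary tables.

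Linear models were fitted in limma 3.58.1 (R 4.3.3) to the 3 genotypes within each subfield, to each mouse's mean over subfields and to its differences between subfields. For subfields all 51 arrays were fitted with mouse as a block, because each mouse gave 3 arrays. P-values were adjusted by the Benjamini-Hochberg method at 0.05. After removal of group means, the mean r was 0.0492 between arrays of 1 mouse and -0.021 between arrays of different mice, and no arrays correlated above 0.979. Fits were tested on simulated data. Alternatives comprised Fisher's LSD (log2 or linear signals), a trend in intensity, weights for arrays, removal of sets under the 40th percentile, median centring, quantile normalization, fits of 2 genotypes, other blocks, single genotypes, every probe set of listed genes, and omission of 5 arrays, 7 arrays or each mouse. The 7 arrays are the 5 and the other arrays of DN mouse8578. A Gapdh covariate, and omission of 5 arrays for lists, were chosen after seeing the data. All members are named. Pathway genes named are up to 4 per list with the largest difference among those called, at the brightest probe set. Mapk10 and Mark2 for CA3 against the DG were added after their values were seen. The members, lists and arrays left out were chosen with earlier results of these data known. The number of arrays and the spread between mice set the precision. Figures were drawn with matplotlib 3.10.9.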

Additional observations from a re-analysis of the deposited data

Results flagged for a closer look

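Of 135 groups of 5 or 6 arrays (a member probe set in 1 genotype and subfield), 10 held a highest or lowest array that stood apart from the others by Dixon's 95% criterion, which chance meets in about 1 of 20 groups. For Mapt 1417885_at in CA1, tTA mouse8522 read 3.74 where the other tTA arrays read 5.84 to 6.44, and DN mouse8531 read 8.36 where the others read 5.46 to 6.35. For Mapt 1424718_at, DN mouse8540 read 5.59 in CA3, below the others at 6.32 to 6.70. For Map2, tTA mouse8552 read 7.53 in CA3 at 1421327_at (others 8.21 to 8.47), and DN mouse8531 read 6.73 in CA1 at 1421328_at (others 7.38 to 7.66). For Cdk5r1 1421123_at, DN mouse8531 read 2.96 in CA1 (others 3.70 to 4.03), and the array labelled DN mouse8577 read 6.05 in CA3 (others 2.56 to 3.29). For Cdk5r1 1421124_at, DN mouse8563 read 4.52 in the DG (others 2.93 to 3.18). For Stmn1 1415849_s_at, rTg4510 mouse8565 read 9.45 in CA3 (others 9.08 to 9.21), and the array labelled DN mouse8577 read 9.31 in CA1 (others 8.68 to 8.90). DN mouse8531 thus stood apart at 3 probe sets in its CA1 array, and both arrays of DN mouse8577 named here are among the 5 whose Prnp went against the label.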

How the results depend on the processing

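No member changed sign past the threshold in any setting. Of the values of single probe sets under alternatives, 7230 kept their side of the threshold, 49 lost a call and 7 gained one, and most losses fell in fits of 1 genotype. The number of members called for CA3 against the DG was 7 in the fit as reported, 0 in rTg4510 mice only, 0 in tTA mice only, 1 in DN mice only and 6 to 8 without each mouse in turn. For CA1 against the DG it was 3, with 0 in rTg4510 or in tTA mice only and 2 to 3 without each mouse. For CA1 against CA3 it was 0, with 1 under array weights (Cdk5 1422590_at, -0.49, adjusted p = 0.0139) and 0 to 1 without each mouse, the 1 being the same probe set without DN mouse8531 or tTA mouse8552. Without the 5 arrays, Cdk5 1422590_at and Map2 1421328_at lost their calls for CA3 against the DG, and Cdk5r1 1421123_at gained one. Fits of 1 genotype hold only the 15 or 18 arrays of that genotype by construction. With the pairing removed (no replicate block), Map2 1421328_at kept its difference of -0.29 between CA3 and the DG but not its call (adjusted p = 0.0662), nor with the mouse as a random replicate block (-0.29, adjusted p = 0.0507), and no other member changed its call under either.

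Counts over all probe sets moved more. For CA1 against CA3, CA1 against the DG and CA3 against the DG they were 1059, 2474 and 3137, with 1613, 3154 and 4047 at their highest (array weights for CA1, centring for CA3 against the DG) and 4 (rTg4510 mice only), 199 and 431 (tTA mice only) at their lowest. Without the 5 arrays, 13 probe sets were called for tTA against DN mice and 16 for rTg4510 against DN mice in the DG, where none was called with them, and none of these was a member. The signals of 3 dim probe sets, close to the median of the arrays, limit what can be said of Cdk5 and Cdk5r1.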
